A study of Mus musculus with 6 samples.

Results

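The heartbeat depends on calcium that muscle cells take up into the sarcoplasmic reticulum, an internal membrane store, and release again at each beat. A calcium pump (Atp2a2) fills the store under the control of small inhibitory proteins, a release channel (Ryr2) empties it with the help of anchoring and calcium-binding proteins, and an exchanger in the cell membrane (Slc8a1) moves calcium out of the cell. In the embryonic heart this machinery is still being assembled, and the exchanger is known to be needed for the earliest heartbeats. The 10 genes described here were chosen by name for these roles: Atp2a2, Pln, Sln, Ryr2, Trdn, Asph, Casq2, Hrc, Jph2 and Slc8a1. Every array probe whose RefSeq accession belongs to these genes was taken, which gave 16 probes of 39429 on the array. Of the 16, 15 were well above background on all 6 arrays and entered the test, and all 10 genes were among the 21800 genes tested.

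The hearts came from mouse embryos at embryonic day 9.5 and were taken with the mesoderm and endoderm of the pharynx that lie under the heart tube. Samples were 3 wild-type pools and 3 Arid3b-null pools, each of 4 embryos and each hybridised to 1 single-colour Agilent array. Arid3b encodes a nuclear protein of the ARID family, which binds DNA. How the null allele was made, the strain, and whether the wild-type embryos were littermates are not given in the sources used here. The comparison of null with wild type asks which transcripts differ in hearts labelled Arid3b-null.

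Arid3b itself read 2.91, 3.40 and 3.69 in wild-type pools 1, 2 and 3 and 1.08, 0.52 and 0.45 in null pools 1, 2 and 3. These values, like all levels below, are log2 signals relative to the 75th percentile of the same array. The libraries thus matched their labels (log2 change -2.65, SE 0.26, limma adjusted p = 0.00194). This was the brightest of 3 kept Arid3b probes and was well above background on all 6 arrays. Signal thus remained in the null pools, and its source was not tested. Each array had between 27136 and 31039 of 43020 non-control spots well above background, and 0 were saturated. On each of the 3 slides a wild-type pool lay beside the null pool that carries its number, always in the same order, so place and genotype cannot be told apart. In all, 2279 of 21800 genes passed an adjusted p under 0.05, 1448 higher and 831 lower in the null pools. Scaling by array medians instead moved this split to 1105 higher and 1399 lower. The median change over all genes was 0.03, and it was -0.11 with median scaling and 0.16 with normexp background correction. With 3 pools a group the number of arrays limits the precision. The limma p-values set a difference against the spread between pools, moderated over all genes, and not against that between embryos.

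Of the 10 calcium cycling genes, 1 rose (Asph, 1.5-fold) and 0 fell by the limma test at an adjusted p under 0.05, which is 10% of them where 10.5% of all genes tested passed (6.64% higher and 3.81% lower). At an unadjusted p under 0.05 there were 2 higher (Asph and Hrc) and 1 lower (Trdn). The log2 changes, null minus wild type, ran from -0.81 for Trdn to 0.61 for Hrc, with a median of 0.21. For 4 of the 10 genes (Pln, Ryr2, Trdn and Asph) null and wild-type pools had no overlap, against 32.9% of all genes tested. Members were thus called at a rate near that of the whole array, and the count is not a result about them. For genes that did not pass, the intervals give the range of change that 3 pools a group allow, and for Sln, Hrc, Slc8a1 and Trdn that range reaches past 1 log2 unit.

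**Figure D1:**
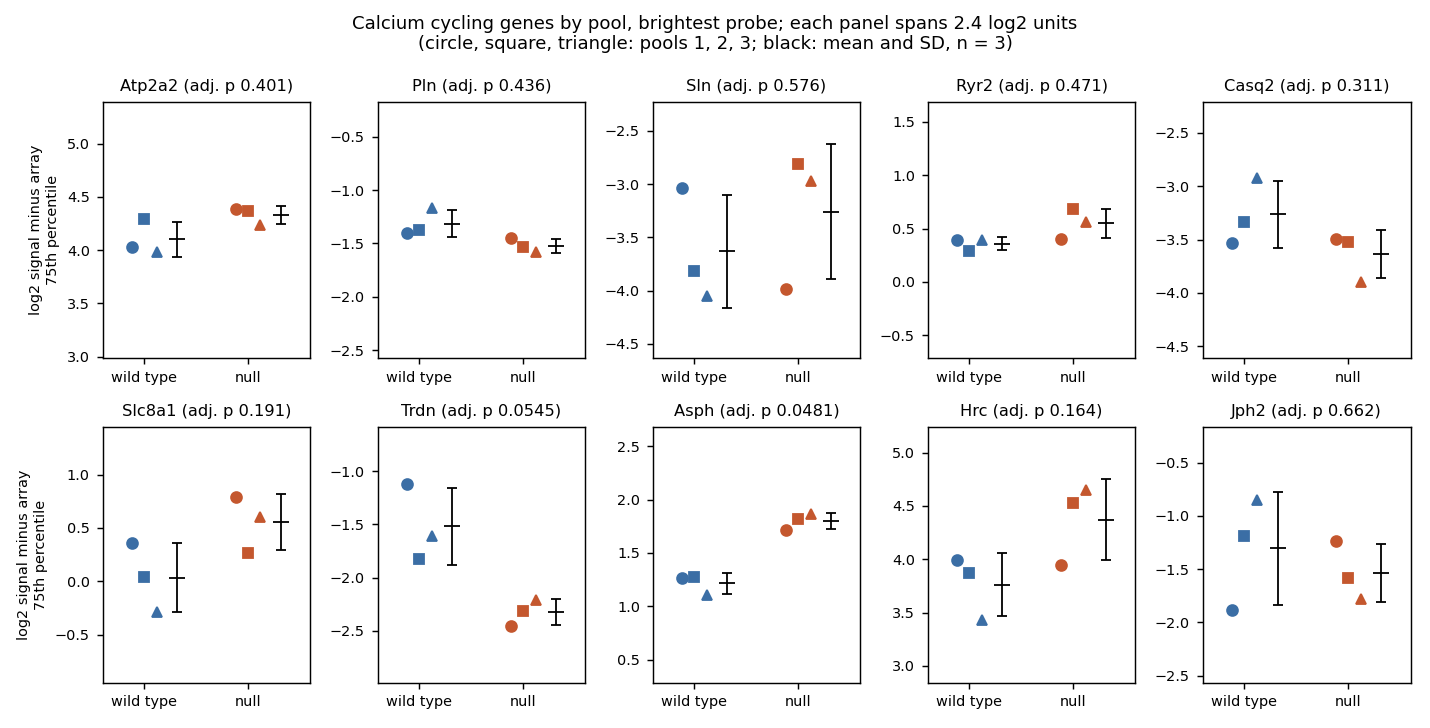
Level of each of the 10 genes by pool, as log2 signal of the brightest probe minus the array's 75th percentile (y axis), for the wild-type and the null pools; symbols mark pools 1 to 3, and black bars the mean and SD (n = 3). The null pools lie apart from the wild-type pools for Asph (higher) and Trdn (lower), and by smaller steps for Ryr2 (higher) and Pln (lower). Sln and Jph2 spread as widely within a group as between the groups.

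The genes of calcium uptake did not pass the test. Atp2a2, the calcium pump of the cardiac sarcoplasmic reticulum, read 4.03, 4.29 and 3.99 in wild-type pools 1 to 3 and 4.39, 4.37 and 4.24 in null pools 1 to 3. The highest wild-type pool lay within the range of the null pools, so the groups overlapped. The log2 change was 0.23 (SE 0.16, 95% interval -0.14 to 0.60, adjusted p = 0.401), and 0.11 on its dimmer probe (SE 0.18). An increase or decrease of the pump's transcript by 1 log2 unit lies outside that interval. Pln encodes phospholamban, the small membrane protein that slows the pump until it is phosphorylated. Its levels were -1.40, -1.38 and -1.17 in wild type and -1.45, -1.53 and -1.58 in null hearts. All null pools lay below all wild-type pools, but by a small step: the change was -0.20 (SE 0.15, interval -0.56 to 0.15, adjusted p = 0.436). Sln encodes sarcolipin, a related inhibitor of the pump that is typical of atrial muscle. It was the most variable of the 10 genes within the groups, at -3.04, -3.81 and -4.05 in wild type and -3.99, -2.81 and -2.98 in null hearts. Null pool 1 read near the lowest wild-type pools and wild-type pool 1 near the highest null pools, so that the change within slides was -0.95, 0.997 and 1.07. The fitted change of 0.37 (SE 0.38, interval -0.51 to 1.25, adjusted p = 0.576) leaves room for a rise of more than 1 log2 unit or for a fall.

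Because pump and inhibitor act on each other, their levels were also compared within each array. This removes a constant log2 shift between arrays, but not scaling that depends on intensity. The difference Pln minus Atp2a2 was -5.43, -5.67 and -5.16 in the wild-type pools and -5.84, -5.90 and -5.81 in the null pools. It was lower in every null pool, by 0.43 log2 units on average, from -5.42 ± 0.26 to -5.85 ± 0.05 (SD, n = 3). The exact permutation test, two-sided, gave p = 0.1, the smallest that 3 against 3 pools allow, and 0.3 after Benjamini-Hochberg adjustment over 3 such differences. With the mean of a gene's probes in place of the brightest, the change was -0.38 (exact p = 0.2). It was -0.52 with quantile normalization and -0.33 with normexp background correction. Sln minus Atp2a2 differed by 0.14 (exact p = 1) and Slc8a1 minus Atp2a2 by 0.29 (exact p = 0.2), with overlapping groups in both. The size of such a difference says how unequally the transcripts changed, not which is more abundant, since probes differ in brightness.

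The release channel and the calcium-binding proteins of the store did not pass either. Ryr2, the ryanodine receptor through which calcium leaves the store, had the smallest absolute change of the 10 genes. It read 0.40, 0.29 and 0.39 in wild type and 0.41, 0.68 and 0.56 in null hearts. The null pools all lay above the wild-type pools, null pool 1 barely so, with a change of 0.19 (SE 0.15, interval -0.17 to 0.55, adjusted p = 0.471). Casq2, the cardiac calsequestrin that binds calcium inside the store, read -3.53, -3.33 and -2.92 in wild type and -3.49, -3.52 and -3.90 in null hearts. Its groups overlapped, with a change of -0.37 (SE 0.21, interval -0.88 to 0.13, adjusted p = 0.311). Within slides it moved by 0.04, -0.19 and -0.98, so most of the mean came from slide 3. With normexp background correction the change was -0.00379. Hrc encodes a histidine-rich calcium-binding protein of the store that also contacts triadin. Its levels were 3.99, 3.87 and 3.43 in wild type and 3.94, 4.52 and 4.65 in null hearts. Null pools 2 and 3 were above every wild-type pool and null pool 1 was not. The change of 0.61 (SE 0.25, interval 0.03 to 1.18) had an adjusted p = 0.164 and was -0.05, 0.65 and 1.22 within slides 1, 2 and 3.

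Trdn, triadin, ties calsequestrin to the release channel and had the largest fitted fall of the 10 genes. It read -1.12, -1.83 and -1.61 in wild-type pools 1 to 3 and -2.45, -2.31 and -2.21 in null pools 1 to 3. All null pools lay below all wild-type pools, and the slides gave -1.33, -0.48 and -0.61. The change was -0.81 (SE 0.21, interval -1.30 to -0.31), 1.75-fold lower in the null pools. Its adjusted p = 0.0545 missed the threshold, and it was 0.177 when slide was a block. With normexp background correction the change was -0.52. A different Trdn probe was not well above background on any of the 6 arrays and was not tested. Triadin is also made by skeletal muscle, and 2 of 8 measured skeletal muscle markers fell: Tnnc2, the calcium-binding troponin of fast fibres, by 0.90 log2 units (SE 0.22, adjusted p = 0.0413) and Myh3, an embryonic myosin, by 0.91 (SE 0.20, adjusted p = 0.0326). Both calls were lost when slide was a block (0.137 and 0.110). Of the other 6, 3 had a change above 0, up to 0.43, 1 of them at an unadjusted p under 0.05. Myh3 was well above background on only 3 of 6 arrays, and all its null pools lay below all wild-type pools. The size of its fall thus rests in part on values not well above background. The myogenic regulators Myod1, Myf5, Myog and Myf6 were not among the genes tested. The part of such cells in the Trdn value was not tested. Jph2, junctophilin, holds the store membrane close to the cell membrane. It read -1.89, -1.19 and -0.85 in wild type and -1.24, -1.58 and -1.78 in null hearts. The groups overlapped fully, with a change of -0.23 (SE 0.29, interval -0.90 to 0.44, adjusted p = 0.662) and slide values of 0.65, -0.40 and -0.93. Without wild-type pool 3 the change was 0.000191.

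Asph was the gene that passed, and all of its probes pointed the same way. From alternative promoters and splicing the gene makes an aspartyl/asparaginyl hydroxylase of the endoplasmic reticulum as well as junctin, a partner of triadin at the release channel, and junctate. Which of these products each probe reads was not determined here. The brightest probe, A_52_P306351, read 1.27, 1.28 and 1.10 in wild-type pools 1 to 3 and 1.72, 1.82 and 1.86 in null pools 1 to 3. The pools of each group lay close together, at 1.22 ± 0.10 and 1.80 ± 0.08 (SD, n = 3). As the value that stands for the gene it rose by 0.58 log2 units (SE 0.15, interval 0.24 to 0.93), a 1.5-fold rise with adjusted p = 0.0481 over all genes, and by 0.45, 0.54 and 0.76 within slides 1, 2 and 3. The call ended when slide was a block (adjusted p = 0.261), without any 1 of the 6 pools (0.0743 to 0.159), under scaling by medians (0.0934), when dim probes were kept (0.126) and in the authors' table (0.0551).

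The other Asph probes gave larger changes. A_55_P1967414 read -4.43, -4.71 and -4.60 in wild type and -3.57, -3.66 and -3.51 in null hearts. It changed by 0.998 log2 units (SE 0.16), a 2-fold difference with tight groups, and passed with an adjusted p = 0.00975 over the 26848 probes tested. That call ended with normexp (0.0506), where the change was 0.59, and without wild-type pool 2 (0.0502). A_52_P625171 read -0.60, -0.87 and -1.09 in wild type and -0.01, -0.11 and 0.42 in null hearts, a change of 0.96 (SE 0.21, adjusted p = 0.0312; up to 0.108 without any 1 pool but wild-type pool 1, and 0.0793 when dim probes were kept). A_55_P2379599 read -0.96, -0.35 and -0.54 in wild type and 0.87, 0.03 and 0.08 in null hearts. Its change of 0.95 (SE 0.28, adjusted p = 0.0719) did not pass, and null pool 1 stood above the other null pools. Over all probes the adjusted p of the brightest probe was 0.0511, so that 2 of 15 member probes were called, both of Asph, where 10.2% of all probes passed (6.43% higher and 3.75% lower). For 8 of the 15 the groups lay apart, against 32.8% of all probes. The 4 probes share a gene and are not independent of each other. Under the slide block 0 of them passed (adjusted p from 0.0707 to 0.264). With the mean of the probes standing for the gene, Asph rose by 0.87 (adjusted p = 0.0131).

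**Figure D2:**
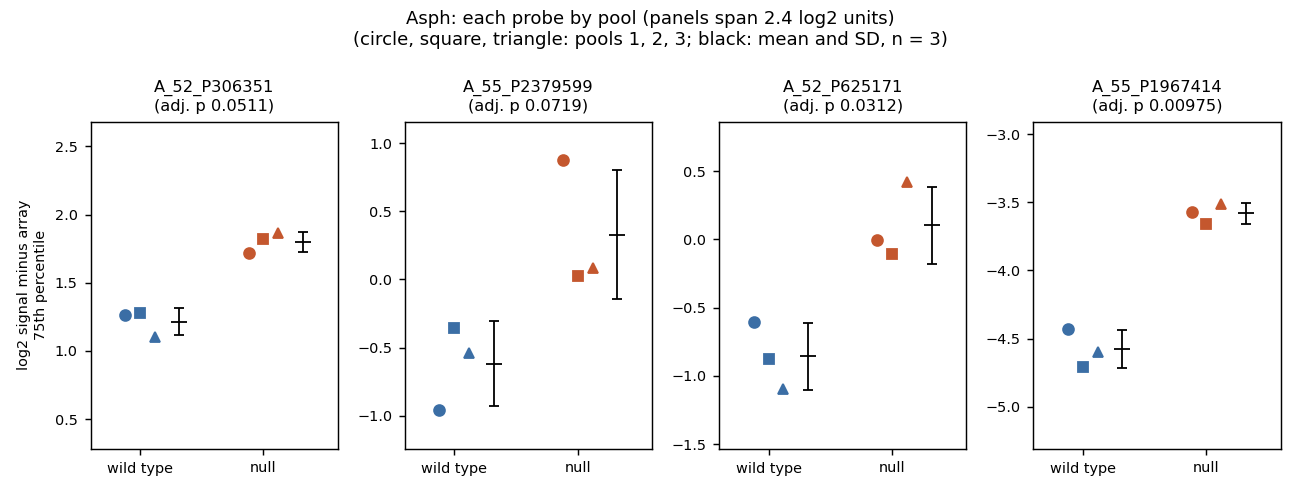
The 4 Asph probes by pool, as log2 signal minus the array's 75th percentile (y axis), with symbols for pools 1 to 3 and black bars for the mean and SD (n = 3). In each panel all null pools lie above all wild-type pools, by 0.58 to 0.998 log2 units between the means.

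Slc8a1, the sodium-calcium exchanger of the cell membrane, was read by 2 probes. The brighter read 0.36, 0.04 and -0.29 in wild type and 0.79, 0.27 and 0.61 in null hearts. Null pool 2 lay below wild-type pool 1, so the groups overlapped, while each null array was above its slide neighbour (0.43, 0.23 and 0.90). The change was 0.52 (SE 0.225, interval -0.01 to 1.04, adjusted p = 0.191). The dimmer probe read -1.86, -1.81 and -1.80 in wild type and -1.25, -1.56 and -1.39 in null hearts. There the groups lay apart, with a change of 0.42 (SE 0.16) and an adjusted p = 0.134 over all probes. Neither probe passed.

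**Figure D3:**
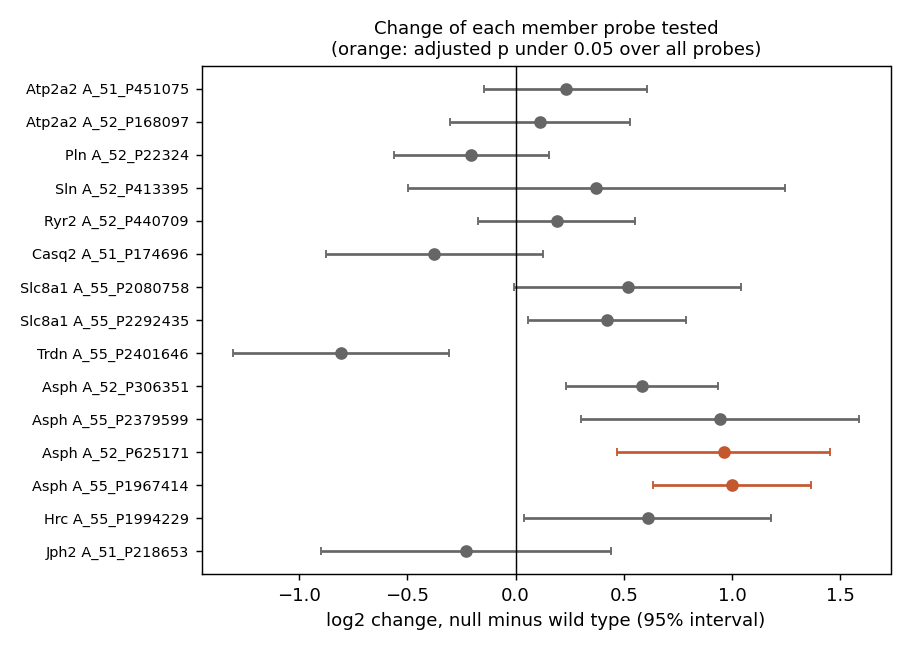
Log2 change, null minus wild type, with its 95% interval for each of the 15 member probes tested (x axis); orange marks probes with an adjusted p under 0.05 over all probes. The 4 Asph probes lie between 0.58 and 0.998, and Trdn lies at -0.81. The intervals of Atp2a2, Pln, Sln, Ryr2, Casq2, Jph2 and the brighter Slc8a1 probe include 0.

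Asph and Trdn sat close to the threshold on either side, and which of them passed moved with the processing. Asph passed under 8 of 18 alternatives and kept its direction in all 18, with changes from 0.45 to 0.87. Trdn also kept its direction in all 18, from -0.96 to -0.52, and passed with quantile normalization (adjusted p = 0.0431), median scaling (0.0225), a stricter filter on dim probes (0.0413), array weights (0.0426), a prior that was trended and robust (0.0412) and scaling to cardiomyocyte markers (0.04995). With array weights Hrc passed as well (adjusted p = 0.0493). No other member passed under any of the 18 alternatives.

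**Figure D4:**
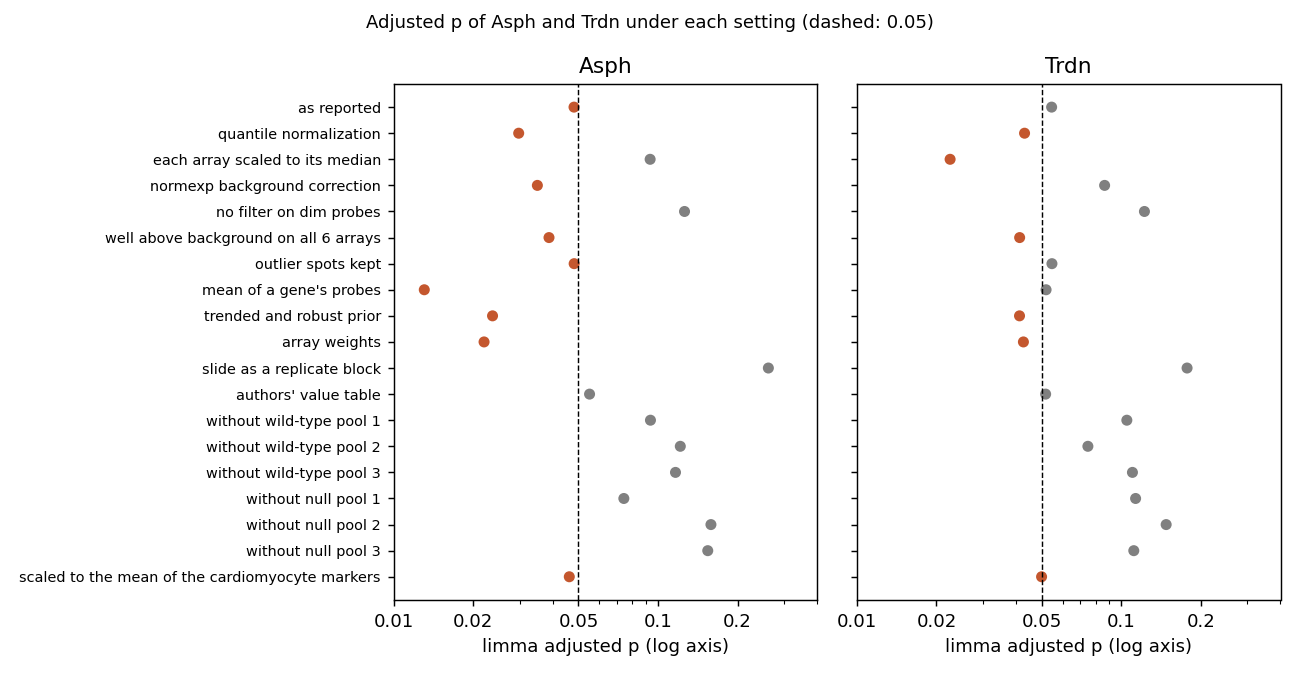
Limma adjusted p (x axis, log scale) of Asph and Trdn as reported and under each of 18 alternative settings (y axis); orange points are under 0.05, marked by the dashed line. Asph lies between 0.0131 and 0.261 and Trdn between 0.0225 and 0.177, with both above the line whenever a single pool is left out.

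Beyond the 10 genes, the wider calcium handling list held other pumps, channels, exchangers, buffers and their regulators. Of 52 listed genes 50 were measured, of which 6 rose, 2 fell and 42 did not pass, so that 16% passed against 10.5% of all genes. The list's median change was 0.18. When slide was a block 3 rose and 1 fell. Several of the risen genes are relatives of members that did not pass. Atp2a3, a calcium pump known from platelets, endothelium and other blood-related cells, read -2.63, -2.65 and -2.79 in wild type and -1.28, -1.39 and -1.67 in null hearts. It rose 2.37-fold (log2 1.24, SE 0.17, adjusted p = 0.00594), beside a change of 0.23 for Atp2a2 and -0.31 (SE 0.18, adjusted p = 0.311) for Atp2a1, the pump of fast skeletal muscle. Whether these pumps differ from each other in their change was not tested. In the same null pools all 8 platelet markers rose, among them Gp1ba by 2.65 (SE 0.16) and Pf4 by 3.65 (SE 0.32). The mean level of that list was -3.01 to -2.46 in the wild-type and -0.13 to 0.56 in the null pools. The part of platelet-lineage cells in the Atp2a3 value was not tested.

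Jph1, the junctophilin best known from skeletal muscle, read -5.88, -5.63 and -5.40 in wild type and -4.10, -4.61 and -4.44 in null hearts. It rose 2.39-fold (log2 1.26, SE 0.20, adjusted p = 0.0113), beside -0.23 for Jph2 and -0.23 for Jph3. Its call ended when slide was a block (0.0525) and when wild-type pool 2 was left out (0.0514). With normexp the change was 0.65. Jph1 was dim, though well above background on all 6 arrays. Itpr3, an inositol trisphosphate receptor that releases calcium from the endoplasmic reticulum in many cell types, rose 1.94-fold (log2 0.95, SE 0.20, adjusted p = 0.0254). Its relatives changed by 0.68 (Itpr2, SE 0.26, adjusted p = 0.146) and 0.27 (Itpr1, SE 0.18, adjusted p = 0.386). The call of Itpr3 was lost when slide was a block (0.0993), with no filter on dim probes (0.0691) and without any pool other than null pool 1 (up to 0.0962). Atp2b2, a calcium pump of the cell membrane, rose 3.07-fold (log2 1.62, SE 0.25, adjusted p = 0.00944) and by 1.17 on its other probe. It was dim, and with normexp background correction the change was 0.71.

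S100a1, a small calcium-binding protein that acts on the pump and the release channel in heart muscle, read -0.95, -1.76 and -0.78 in wild type and 0.15, 0.14 and 0.07 in null hearts. It rose 2.43-fold (log2 1.28, SE 0.26, adjusted p = 0.0250) and by 1.43 on its other probe. The call was lost when slide was a block (0.0585), with no filter on dim probes (0.0635) and without any 1 of the null pools (up to 0.0823). Adrb1, the beta-adrenergic receptor of heart muscle whose signal leads to phosphorylation of phospholamban, rose 2.51-fold on its brighter probe (log2 1.33, SE 0.21, adjusted p = 0.0104). Its dimmer probe changed by 0.40 (SE 0.22, adjusted p = 0.285), so the probes disagreed in size. Cacna1d, a calcium channel of the cell membrane found in pacemaker cells and neurons, read -2.77, -2.59 and -2.72 in wild type and -3.97, -4.03 and -4.33 in null hearts. It fell 2.67-fold (log2 -1.42, SE 0.17, adjusted p = 0.00358), with -0.83 (SE 0.31, adjusted p = 0.131) on its other probe and -0.53 with normexp background correction (adjusted p = 0.0511). Cacna1c, the main calcium channel of heart muscle, changed by 0.01 (SE 0.22, interval -0.49 to 0.52, adjusted p = 0.978). It was read by 1 dim probe, with a mean of -5.15 in the wild-type and -5.13 in the null pools. Ppp1r1a, an inhibitor of the phosphatase that reverses phospholamban phosphorylation, fell 2.18-fold (log2 -1.13, SE 0.21, adjusted p = 0.0180). The call was lost when slide was a block (0.0780), when dim probes were kept (0.0509), and when pool 2 or 3 of either group was left out (up to 0.0675). Atp2a3, Atp2b2 and Adrb1 passed under all 18 alternatives.

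**Figure D5:**
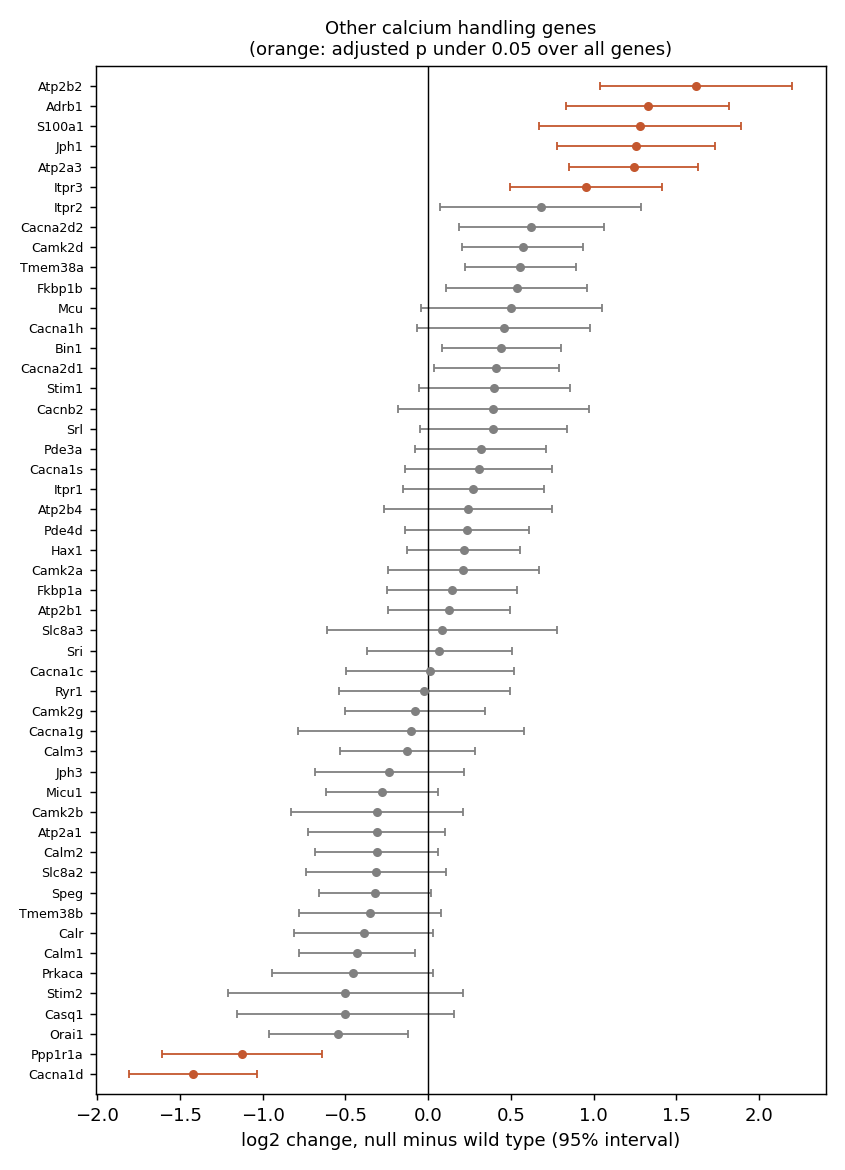
Log2 change, null minus wild type, with its 95% interval for the 50 measured genes of the wider calcium handling list (x axis), sorted by change; orange marks an adjusted p under 0.05 over all genes. The risen genes lie between 0.95 and 1.62, the fallen genes at -1.13 and -1.42.

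The heart muscle markers bear on how much muscle the pools held. Of 18 listed cardiomyocyte markers 17 were measured, all well above background on all 6 arrays, and 0 rose or fell by the limma test (0 higher and 1 lower at an unadjusted p under 0.05). Their median change was -0.06, and their mean level was 6.07 to 6.18 in the wild-type and 5.94 to 6.17 in the null pools. The smallest p-values were those of the troponins Tnnc1 (-0.46, SE 0.17, adjusted p = 0.139) and Tnni3 (-0.37, SE 0.17, adjusted p = 0.217). With each array scaled to the mean of these markers, Asph changed by 0.63 (adjusted p = 0.0462), Atp2a2 by 0.27 and Ryr2 by 0.23. In such mixed tissue, fewer cells of a type and less RNA per cell cannot be told apart. Of 8 ventricular markers 0 rose and 1 fell, the transcription factor Irx4, by 0.82 log2 units (SE 0.16, adjusted p = 0.0226; 0.130 when slide was a block). The median of that list was 0.16, and 5 of the 8 had a change above 0. Among atrial markers the peptide hormone gene Nppa rose by 1.27 (SE 0.18, adjusted p = 0.00764) and Stard10 fell by 1.09 (SE 0.23, adjusted p = 0.0282; 0.0662 when slide was a block), while 8 of 10 did not pass.

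Markers of other cells that the dissected tissue could hold were measured beside these. Of 7 smooth muscle markers Tagln rose by 0.80 (SE 0.15) and Lmod1 fell by 0.91 (SE 0.21), the latter well above background on 3 arrays. None of 8 endothelial markers passed (0 at an unadjusted p under 0.05 in limma), with Kdr at 0.38 and Cdh5 at 0.33. None of 8 red cell markers passed, but 7 were higher at an unadjusted p under 0.05, with Hbb-y at 0.98 and a list median of 1.03. Of 8 endoderm markers Sox17 rose by 1.22 (SE 0.16) and Nkx2-1 fell by 0.79 (SE 0.20). The median of that list was -0.24, and 2 of the 8 had a change above 0. At an unadjusted p under 0.05 in limma, 1 endoderm marker was higher and 3 were lower. Of 8 mesenchyme and crest markers Tfap2a rose by 0.91 (SE 0.17). Of 7 measured trophoblast markers Ascl2 rose by 3.62 (SE 0.19), and the mean level of the list ran from -2.21 to -2.09 in the wild-type and from -2.46 to 1.23 in the null pools. Of 7 neural markers 3 fell: Tubb3 (-1.16, SE 0.25), Dcx (-1.30, SE 0.26) and Neurod1 (-3.36, SE 0.46), the last well above background on only 3 of 6 arrays. For Lmod1 and Neurod1 all null pools lay below all wild-type pools. The size of both falls thus rests in part on values not well above background. When slide was a block, Tagln, Lmod1, Nkx2-1, Tfap2a, Dcx and Tubb3 lost their calls (adjusted p from 0.0663 to 0.148). Asph is made in many cell types, and the part of these cells in its rise was not tested.

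The genes whose levels ran most like Asph over the 6 arrays were Upp1, a uridine phosphorylase (Pearson's r = 0.999), Heca (0.998) and Gas7 (0.998). All 3 were called higher, by 1.79, 1.08 and 0.85 log2 units. With 6 arrays in 2 groups, any gene that differs evenly between the groups correlates strongly with Asph. The 3 were picked as the highest among all other genes with a symbol, so r is given as a description only.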

How the data were processed

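RNA from 3 wild-type and 3 Arid3b-null heart pools was labelled with Cy3, per the labels' protocols, and scanned on Agilent array design 026655. The deposited intensity values were made with Agilent Feature Extraction 10.7.3.1, per the file headers, with background subtracted and no scaling between arrays. The other deposited columns used were the software's flags. The authors' table of log2 values covered 24158 non-control probes. The sources used here do not say how it was made. Its array medians lay between 6.76 and 6.77, where those of the log2 scanner signal ran from 5.47 to 6.44. The arrays of the table thus shared a common centre, by a method that is not known. The table correlated with the log2 scanner signal above 0.999 on each array and served as an alternative.

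From log2 processed signals the 75th percentile of the array's non-control spots was subtracted. Outlier-flagged spots were left out and spots of a probe averaged. Probes well above background on at least 3 of 6 arrays were kept (26848 of 39429). Symbols came through RefSeq accessions in the GRCm38.p6 gene list (26424 of all 39429 probes matched, kept or not). Since mm9 is the build in the headers, positions are left out. The brightest kept probe stood for a gene, and probes without a symbol were tested under their target name. Of the 21800 genes tested, 15233 thus carried a symbol. Null was set against wild type in limma 3.58.1 (lmFit and eBayes, under R 4.3.3 with data.table, version 1.17.8), two-sided, with Benjamini-Hochberg adjustment over all genes or probes tested. SE is the moderated standard error, and 95% intervals are not adjusted for the number of genes. The procedure was tested on simulated data.

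Pools of the same number shared a slide. Their deviations from the group means correlated by -0.41, -0.09 and -0.41, so the slide block is an alternative and not the main design. Genes named were all members and probes, every called gene of the calcium list, up to 4 called genes with the smallest p (or else 2 with the smallest p) of each marker list, the 3 genes most like each called member, and Arid3b. A marker gene that this rule names is not reported here. Relatives of members (Atp2a1, Jph3, Itpr1, Itpr2) and Cacna1c were named after their values were seen. The members and lists were chosen with earlier results of these data known. Alternatives were quantile normalization, median scaling, normexp (offset 50, on median spot signals), no filter, a filter on all 6 arrays, averaging a gene's probes, keeping outlier spots, array weights, a prior both trended and robust, the slide block, the authors' table and leaving out each pool. Scaling to the cardiomyocyte markers was added after seeing the data.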

Additional observations from a re-analysis of the deposited data

How the results depend on the processing

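As reported, 1 member gene rose and 0 fell, 2 member probes rose and 0 fell, and 6 other calcium handling genes rose and 2 fell. Risen member genes were 0 with median scaling, no filter on dim probes, the slide as a replicate block, the authors' table or any 1 pool left out (0 to 0), and 2 with array weights. Fallen member genes were 1, namely Trdn, with quantile normalization, median scaling, the filter on all 6 arrays, the trended and robust prior, array weights and scaling to the cardiomyocyte markers. Risen member probes were 1 with no filter, 4 with the trended prior, 0 with the replicate block and 0 to 2 with a pool left out. Fallen member probes were 1 with quantile normalization, median scaling, the filter on all 6 arrays, the trended prior and array weights. Of the other calcium handling genes, 10 rose with array weights and 3 with the replicate block, and 1 fell with normexp, no filter or the replicate block and 1 to 2 with a pool left out. Over all genes the total of 2279 became 1037 with no filter, 3817 with array weights, 742 with the replicate block and 834 to 1765 with a pool left out (wild-type pool 2 gave 834, null pool 2 gave 899, wild-type pool 3 gave 1095 and null pool 3 gave 1106). Risen genes were 754, 2301 and 539 under the first 3 of these and 590 to 1180 with a pool left out. Fallen genes were 283, 1516 and 203, 1399 with median scaling and 241 to 585 with a pool left out. The no-filter setting tested 32530 genes, and the settings without a pool held 5 arrays. The cause of the other shifts was not tested. Sln minus Atp2a2 ran from -0.0607 to 0.54 with a pool left out, and was below 0 when that pool was number 2 or 3 of either group. Jph2 ran from -0.52 to 0.000191. Every other member kept its direction under all 18 alternatives. The limma prior, array weights and marker scaling were not run on the within-array differences, and the mean of probes not on single probes. With the replicate block Pln minus Atp2a2 stayed at -0.43, and its test over 3 pairs cannot go below 0.25. With normexp Atp2b2 went from 1.62 to 0.71, Jph1 from 1.26 to 0.65, Cacna1d from -1.42 to -0.53 and Casq2 from -0.37 to -0.00379, all of low signal, while Sln went from 0.37 to 0.43.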
